A study of Arabidopsis thaliana with 48 samples.

Results

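The genes described here rose within 4 h of a heat acclimation in wild-type *Arabidopsis thaliana* seedlings, returned towards their starting level within the next days, and rose less in a mutant that lacks the heat shock factors HSFA2 and HSFA3. Members were chosen from the counts. CPM (1000000 times a gene's count over the gene counts of its library) were averaged over the 3 libraries of a group, and L is the log2 ratio of a group mean plus 1 CPM to the mean of the same genotype without heat stress (no HS) plus 1 CPM. In the wild type Col, L had to be above 1 at 4 h, below 0.8 at 28 h and below 0.6 at 52 h, which held for 1792 of 33323 genes. In *hsfa2 hsfa3*, L at 4 h had to fall short of that in Col by 1 or more, with every double-mutant library at 4 h below every Col library. This left 148 members, 8.26% of the early genes, and the condition on the libraries removed none. The other 1644 early genes are used for comparison. Only 2 early genes had an L at 4 h that was higher by at least 1 in the double mutant.

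The seedlings were Col, *hsfa2*, *hsfa3* (the line the study calls *hsfa3-1*) and *hsfa2 hsfa3*, each mutation a single insertion line in the Col background. They were grown in long days and, when 4 d old, received the acclimation (ACC), which consisted of 37 °C (1 h) and later 44 °C (45 min), with 90 min at 23 °C between them. Whole seedlings were collected without any heat treatment and after ACC, with the sampling times 4 h, 28 h and 52 h. When the untreated seedlings were collected is not given in the sources used here. Each of the 16 groups had 3 biological replicates, which gives 48 libraries. A single no-HS group per genotype served all time points, so that the age of the seedlings and the treatment cannot be told apart.

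Heat shock factors are transcription factors that bind heat shock elements (HSEs), arrays of the short unit GAA in alternating orientation, and switch on chaperone and other genes when proteins unfold. In *Arabidopsis*, class A1 factors act first and are needed for the induction of *HSFA2*, and HSFA2 is known for keeping heat-induced genes active after the stress has ended. HSFA3 is also induced in the course of the response and is known as a target of the dehydration-response factor DREB2A, which binds the dehydration-responsive element (DRE).

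Between 27739931 and 34058960 counts fell on genes in a library (median 33505334.5), so that 3 counts, taken as the floor, are 0.0881 to 0.108 CPM. The targeted gene *HSFA2* stood at 1190 ± 121 CPM in Col (SD, n = 3) and 1102 ± 169 CPM in *hsfa3* at 4 h, but at 56.4 ± 13.4 CPM in *hsfa2* and 55.1 ± 2.97 CPM in *hsfa2 hsfa3*. *HSFA3* is a member and is described with the transcription factors. The photosynthesis genes *RBCS1A* and *LHCB1.3* had group means of 11547 to 14077 CPM and of 12992 to 15680 CPM without HS, and of 5351 to 6319 CPM and 6734 to 7612 CPM at 4 h, when the members rose. By CPM they were lower at 4 h than without HS in every genotype, and their part in the results was not tested. The root gene *PYK10* was at 241 to 399 CPM in all 4 h libraries and at 3960 to 6824 CPM in those without HS, with overlapping ranges of the 4 genotypes at 4 h. In the difference of 4 h induction between *hsfa2* and *hsfa3*, edgeR called 0 of these 3 organ markers and 0 of the 2 seed storage genes *CRA1* and *CRC*, and there were 0 at an unadjusted p below 0.05 and 0 with DESeq2. In whole seedlings, fewer cells of a type and less RNA per cell cannot be told apart.

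Of the members, 144 are protein-coding and all of these passed the filter on low counts, while 4 are pseudogenes or of other types (*AT3G03855*, *NMT2*, *AT1G27285* and *AT1G32890*) and were not tested. They lie on all nuclear chromosomes, with 38, 22, 23, 26 and 39 on chromosomes 1 to 5. Another annotated gene overlaps 47 of them, and their counts are uncertain because the strand setting of the counting is not given in the sources used here.

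The stretch before the gene start is where HSEs are commonly found, and 6 windows are shown. These genes are the members found in the gene lists, without *HSFA3*, and the 4 members with the largest called differences towards lower induction in *hsfa2*. Their values are given below. *HSFA1E* rose in both single mutants, *MYB86* and *AT4G14170* fell below the no-HS level in *hsfa2*, *LACS9* did not pass the test there, and *AT5G11140* and *AT5G63690* had large differences between the single mutants. Each window holds the 250 bases before the gene start in RefSeq's TAIR10.1 assembly, 5′ to 3′ on the gene's strand, with matches to GAANNTTC or TTCNNGAA in capitals. They are chr3:673178-673427 (plus strand) for *HSFA1E*, chr5:9333285-9333534 (minus strand) for *MYB86*, chr4:8178201-8178450 (minus strand) for *AT4G14170*, chr1:29152396-29152645 (minus strand) for *LACS9*, chr5:3544961-3545210 (plus strand) for *AT5G11140* and chr5:25493700-25493949 (minus strand) for *AT5G63690*.
HSFA1E: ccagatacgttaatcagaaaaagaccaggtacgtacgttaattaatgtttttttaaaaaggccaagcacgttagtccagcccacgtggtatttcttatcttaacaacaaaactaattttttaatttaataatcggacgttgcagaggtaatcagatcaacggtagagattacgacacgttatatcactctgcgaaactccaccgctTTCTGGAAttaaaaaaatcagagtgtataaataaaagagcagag
MYB86: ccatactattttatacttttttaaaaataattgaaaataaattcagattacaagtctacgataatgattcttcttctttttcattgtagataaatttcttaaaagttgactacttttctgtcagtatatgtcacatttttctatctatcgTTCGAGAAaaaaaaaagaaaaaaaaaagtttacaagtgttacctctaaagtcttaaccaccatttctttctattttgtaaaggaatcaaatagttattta
AT4G14170: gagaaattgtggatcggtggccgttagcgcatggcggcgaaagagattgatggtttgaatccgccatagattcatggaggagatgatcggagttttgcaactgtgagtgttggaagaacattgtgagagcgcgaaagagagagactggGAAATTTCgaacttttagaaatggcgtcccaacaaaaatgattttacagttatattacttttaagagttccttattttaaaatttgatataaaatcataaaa
LACS9: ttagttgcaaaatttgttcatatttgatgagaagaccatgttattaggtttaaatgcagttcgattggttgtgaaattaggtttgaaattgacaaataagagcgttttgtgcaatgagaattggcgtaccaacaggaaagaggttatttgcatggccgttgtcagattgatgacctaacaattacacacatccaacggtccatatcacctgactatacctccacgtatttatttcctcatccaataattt
AT5G11140: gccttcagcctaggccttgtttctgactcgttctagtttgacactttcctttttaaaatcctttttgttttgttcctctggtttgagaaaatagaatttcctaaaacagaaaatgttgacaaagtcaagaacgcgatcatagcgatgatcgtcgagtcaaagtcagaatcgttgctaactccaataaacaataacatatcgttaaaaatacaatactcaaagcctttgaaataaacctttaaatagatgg
AT5G63690: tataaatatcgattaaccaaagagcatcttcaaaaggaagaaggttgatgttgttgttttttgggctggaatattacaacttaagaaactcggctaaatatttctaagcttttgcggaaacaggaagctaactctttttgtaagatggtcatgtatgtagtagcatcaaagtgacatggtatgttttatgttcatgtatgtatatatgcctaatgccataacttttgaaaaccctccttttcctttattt
The match begins at base −44 from the gene start in *HSFA1E*, at −100 in *MYB86* and at −102 in *AT4G14170*, and the windows of *LACS9*, *AT5G11140* and *AT5G63690* hold none. Over windows of 300 bases, from 250 before to 50 after the start, GAANNTTC or TTCNNGAA was found in 51 of 148 members (34.5%), in 22.9% of 1642 other early genes and in 19.1% of 26711 protein-coding genes. Both motifs read the same on either strand, so that both strands were searched. GAANNTTC alone was in 21.6% of members and 11.5% of all windows, and TTCNNGAA alone in 15.5% and 9.07%. A run of 3 alternating units, spaced as in the shorter motifs and containing both of them, was found in 2 members, *AT1G10040* at base −141 and *AT1G23330* at −79 (1.35%, against 1.10% of other early genes and 0.490% of all windows). The DRE core ACCGAC, searched on both strands, was in 4.05% of members, 16.0% of other early genes and 5.71% of all. Its form GCCGAC was in 5.41%, 7.25% and 3.29%, and the G-box CACGTG, the core of many abscisic acid response elements, in 12.2%, 13.2% and 7.79%. A match says that the letters are present, not that a factor binds there.

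**Figure D1:**
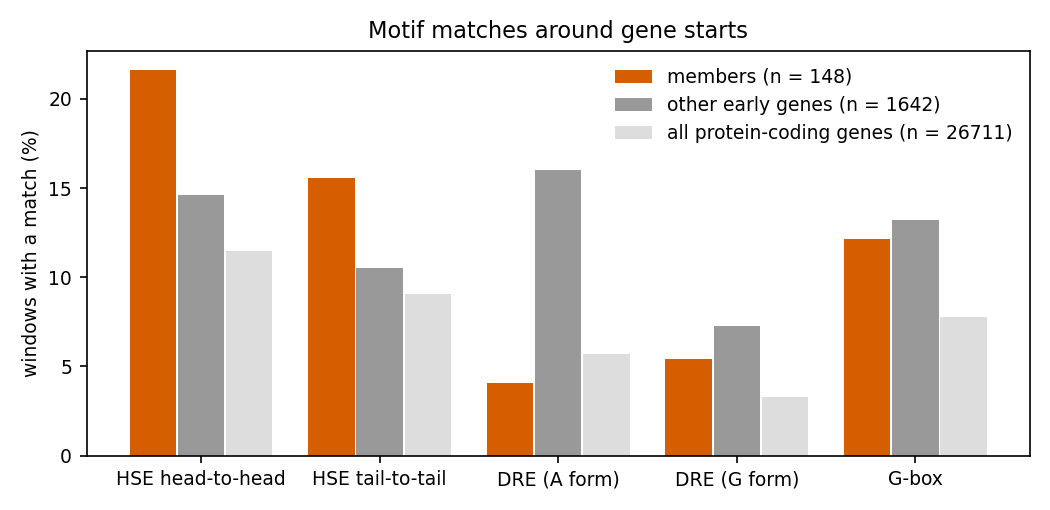
Share of 300-base windows around the gene start that hold each motif (y axis, percent), for the members, the other early genes and all protein-coding genes; HSE head-to-head is GAANNTTC, HSE tail-to-tail TTCNNGAA, the DRE forms ACCGAC and GCCGAC, and the G-box CACGTG. The first HSE form was in 21.6% of member windows and 11.5% of all windows, and ACCGAC in 4.05% of member windows and 16.0% of those of other early genes.

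The values of Col in all groups and of the double mutant without HS and at 4 h chose the members, and they are given as a description without a test. Across the members, the median of log2((CPM + 1)/(no-HS mean + 1)) in each Col library at 4 h was 1.74, 1.82 and 1.87. It was 1.34, 1.47 and 1.3 in *hsfa3*, 0.74, 0.70 and 0.68 in *hsfa2*, and 0.49, 0.49 and 0.42 in *hsfa2 hsfa3*. The libraries of the 4 genotypes did not overlap, and the order was Col, *hsfa3*, *hsfa2* and the double mutant. Over the other early genes, the median L at 4 h was 1.46 in Col, 1.40 in *hsfa2*, 1.40 in *hsfa3* and 1.41 in *hsfa2 hsfa3*. At 28 h the group mean of the member medians was 0.35 in Col, 0.03 in *hsfa2*, 0.12 in *hsfa3* and 0.00 in *hsfa2 hsfa3*, and at 52 h it was 0.16, −0.04, 0.03 and −0.04. CPM ignore shifts in RNA composition. With TMM-normalized library sizes, the median L of the members at 4 h moved from 1.83 to 2.02 in Col and from 0.71 to 0.90 in *hsfa2*. It moved from 1.36 to 1.49 in *hsfa3* and from 0.47 to 0.62 in *hsfa2 hsfa3*.

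**Figure D2:**
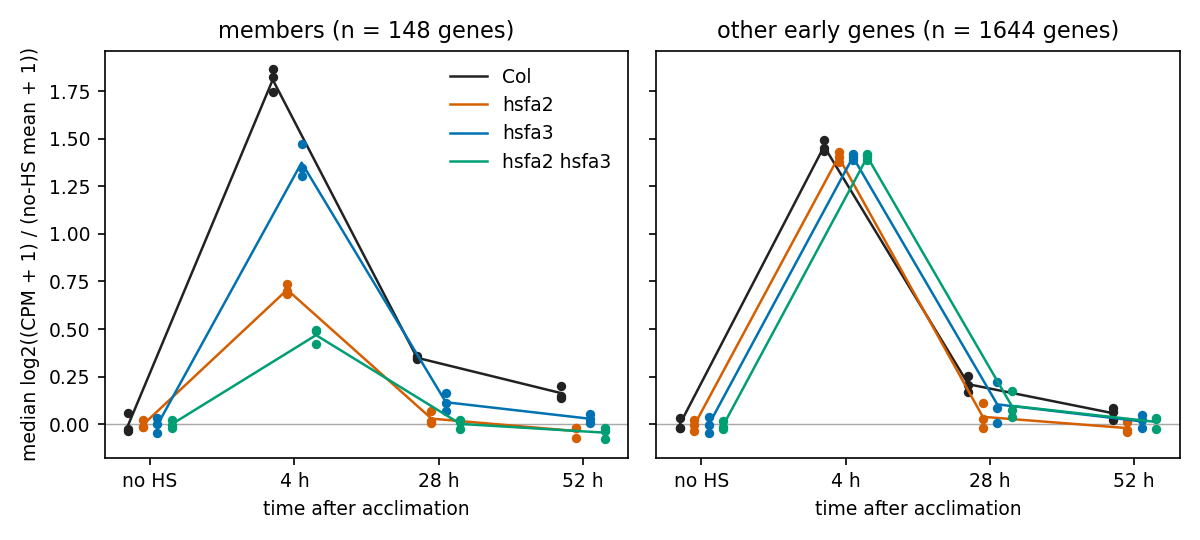
Median over the 148 members (left) and the 1644 other early genes (right) of log2((CPM + 1)/(no-HS mean + 1)) against time after acclimation; each point is a library, lines join the means of 3 libraries, and colours are genotypes. At 4 h the member medians were 1.81 ± 0.0617 in Col, 1.37 ± 0.0887 in *hsfa3*, 0.71 ± 0.0289 in *hsfa2* and 0.47 ± 0.0398 in *hsfa2 hsfa3* (SD, n = 3), while the genotypes lay close together for the other early genes.

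The loss in the double mutant ranged from −3.26 to −1.01 on the scale of L and reached 2 or more for 13 members. Just inside the threshold of 1 lay *AT3G04854* and *LCAT3* (both −1.01), and just outside lay *VPS60.1* (−0.9998) and *RL2* (−0.98). Relative to Col, the median difference of L at 4 h was −1.09 in *hsfa2*, −0.53 in *hsfa3* and −1.32 when both were mutated. It reached −1 or lower for 94 members in *hsfa2* and for 12 in *hsfa3*. The difference in *hsfa2* was at least 50% of that in the double mutant for 145 members, and the difference in *hsfa3* for 38. It was deeper in *hsfa2* than in *hsfa3* for 140 members, and the 8 exceptions were *HSFA3*, *LTI65*, *NAP*, *ACR7*, *SHB1*, *PCME*, *AT5G22820* and *AT3G27025*. The double mutant had the lowest L of the 4 genotypes for 133 members. These differences share the Col libraries that chose the members, and no test is given for them. The double-mutant libraries without HS and at 4 h chose them too. The rule favours a low L of the double mutant at 4 h, so that its rank and its loss beside the single mutants are partly set by the choice.

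The single mutants took no part in the choice, and their induction could be tested. A member is called induced where edgeR's quasi-likelihood test gave a log2 fold change above 1 at an adjusted p below 0.05. In *hsfa2*, 76 of 144 tested members (52.8%) were induced at 4 h, beside 15.4% of the 21107 genes tested and 1495 of 1596 other early genes (93.7%). In *hsfa3*, 109 members (75.7%) were induced, beside 14.8% of all genes and 1536 of 1596 other early genes (96.2%). The median log2 fold change of the members was 1.11 in *hsfa2* and 1.67 in *hsfa3*, and −0.04 and −0.06 over all genes. Both mutants induced 74 members, *hsfa3* alone 35, *hsfa2* alone 2, and neither 33.

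The difference between the single mutants was tested directly as the 4 h induction in *hsfa2* minus that in *hsfa3*. It was below 0 at an adjusted p below 0.05 for 37 members (25.7%), beside 0.422% of all genes, or 89 genes, so that 41.6% of the genes called in this direction were members. Among other early genes 5 of 1596 were called (0.313%). The differences of the 37 ranged from −4.41 to −0.53 with a median of −1.13. Of these, 36 were induced in *hsfa3* and 14 in *hsfa2*. Over all 144 members the median difference was −0.56, against 0.03 over all genes, and 131 members (91.0%) had a negative value, against 42.6% of all genes and 34.6% of other early genes. In 110 members (76.4%) all *hsfa2* libraries at 4 h were below all *hsfa3* libraries, which held for 7.12% of all genes and 11.8% of other early genes. The opposite held for 1 member (2.86% of all genes). Without replicate 3 the 37 calls became 17, in a fit on the groups of this contrast alone 24, and with the replicate number as a block 50. Without the 46 tested members that overlap another gene, 24 of 98 were called.

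**Figure D3:**
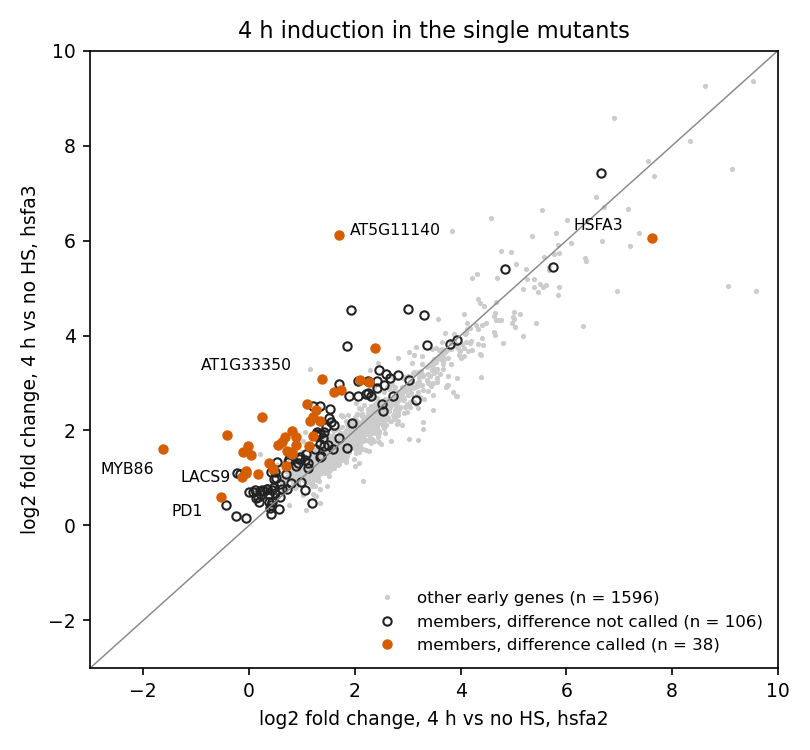
Fitted log2 fold change at 4 h against no HS in *hsfa3* (y axis) against that in *hsfa2* (x axis), one point per gene, with the line of equal induction; grey points are 1596 other early genes, open circles 106 members without a called difference and filled circles 38 with one. Of the 38, 37 lie above the line and *HSFA3* alone below it.

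Members that encode transcription factors include *HSFA3* itself. It stood at 937, 873 and 782 CPM in the Col libraries at 4 h, at 1399, 1099 and 1037 CPM in *hsfa2*, at 152, 153 and 151 CPM in *hsfa3* and at 192, 185 and 195 CPM in the double mutant. It was low in both lines that carry the *hsfa3* insertion, and every *hsfa2* library was above every Col library. Its 4 h induction was higher in *hsfa2* (7.63) than in *hsfa3* (6.05) by 1.58 on the log2 scale (SE 0.271, adjusted p = 0.000682), the only member called in this direction (0.0284% of all genes). Without HS it was also the only member that differed between the single mutants, higher in *hsfa2* by 1.43 (SE 0.206, adjusted p = 0.000201, 0.0237% of all genes). Without replicate 3 the first of these calls was lost (adjusted p = 0.0986), and the second was lost without replicate 2 or 3. *HSFA3* overlaps the annotated gene *AT5G03710*, and it is the mutated gene in *hsfa3*.

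*HSFA1E*, a class A1 heat shock factor, rose in both single mutants. It stood at 132, 120 and 116 CPM in Col at 4 h, at 75.8, 93.9 and 70.7 CPM in *hsfa3*, at 53.5, 44.8 and 47.1 CPM in *hsfa2* and at 31.0, 31.5 and 31.8 CPM in the double mutant, from group means of 4.99 to 6.39 CPM without HS. The libraries of the 4 genotypes did not overlap at 4 h. Its log2 fold change was 3.36 in *hsfa2* (SE 0.129, adjusted p = 2.83e-22) and 3.79 in *hsfa3* (SE 0.13, adjusted p = 1.64e-23), and the difference of −0.43 did not pass (SE 0.17, adjusted p = 0.869).

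*MYB86*, of the MYB family, moved in opposite directions in the single mutants. At 4 h it stood at 14.8, 19.6 and 16.4 CPM in Col and 16.4, 18.2 and 12.2 CPM in *hsfa3*, but at 0.998, 2.56 and 1.76 CPM in *hsfa2* and 1.27, 2.43 and 0.838 CPM in *hsfa2 hsfa3*, from 5.33 to 6.24 CPM without HS. Col and *hsfa3* overlapped, and so did *hsfa2* and the double mutant. It fell in *hsfa2* by 1.63 on the log2 scale (SE 0.304, adjusted p = 1.34e-05) and rose in *hsfa3* by 1.61 (SE 0.283, adjusted p = 5.56e-06), a difference of −3.24 (SE 0.415, adjusted p = 5.34e-06).

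Of all tested members, 52.8% were induced in *hsfa2*, 75.7% in *hsfa3* and 25.7% were called lower in *hsfa2* than in *hsfa3*. The role groups given here and below hold 3 to 7 genes, too few to be set apart from these shares. Among 7 transcription factors in all, a group formed by annotated role after the values were known and without *HSFA3*, 2 were induced in *hsfa2* and 5 in *hsfa3*, and 3 were called lower in *hsfa2*. The third besides *MYB86* and *MYB1* was the zinc-finger gene *ZF3*, with 5.94, 6.40 and 7.44 CPM in Col, 4.68, 5.05 and 4.40 CPM in *hsfa3*, 1.23, 1.16 and 1.03 CPM in *hsfa2* and 1.10, 1.01 and 1.11 CPM in the double mutant. Its difference was −1.68 (SE 0.303, adjusted p = 0.00152), and it overlaps *AT5G43160*. *NAP*, a NAC factor of leaf senescence, was not called in either single mutant (0.42 in *hsfa2* with SE 0.664, 0.24 in *hsfa3* with SE 0.663).

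Enzymes of membrane lipids formed a further group of 6, of which 2 were induced in *hsfa2*, 4 in *hsfa3* and 3 were lower in *hsfa2* than in *hsfa3*. *LACS9* encodes a long-chain acyl-CoA synthetase of the chloroplast envelope, which activates fatty acids for export. It stood at 256, 273 and 271 CPM in Col at 4 h, at 183, 209 and 208 CPM in *hsfa3*, at 75.1, 67.5 and 76.7 CPM in *hsfa2* and at 61.4, 65.9 and 68.1 CPM in *hsfa2 hsfa3*, with means of 76.4 to 82.1 CPM without HS. Col and *hsfa3* were far above both lines with the *hsfa2* insertion. The log2 fold change was 1.49 in *hsfa3* (SE 0.0945, adjusted p = 3.12e-16) and 0.04 in *hsfa2* (adjusted p = 0.703), where L from CPM was −0.16 and the sign depends on the scaling. The difference was −1.45 (SE 0.132, adjusted p = 9.33e-09).

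*DGD2*, a synthase of the galactolipid digalactosyldiacylglycerol, rose in both single mutants. Its 4 h levels were 140, 166 and 146 CPM in Col, 109, 124 and 95.5 CPM in *hsfa3*, 48, 45.9 and 43.2 CPM in *hsfa2* and 39.5, 37.2 and 36.6 CPM in the double mutant, from means of 15.5 to 17.8 CPM. No genotype overlapped another. The log2 fold change was 1.62 in *hsfa2* and 2.81 in *hsfa3*, a difference of −1.19 (SE 0.122, adjusted p = 5.85e-08). *CDS2*, which makes CDP-diacylglycerol, a precursor of phospholipids, differed by −0.95 (SE 0.138, adjusted p = 4.72e-05) and overlaps *AT4G22330*. *LCAT3*, *LACS8* and *PAH1* did not pass, with differences of −0.37, −0.20 and −0.06.

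*PD1* encodes a prephenate dehydratase of phenylalanine synthesis. At 4 h it stood at 146, 172 and 158 CPM in Col, 87.4, 78.3 and 66.3 CPM in *hsfa3*, 38.9, 31.1 and 36.4 CPM in *hsfa2* and 27.5, 22.3 and 21.6 CPM in *hsfa2 hsfa3*, from means of 57.0 to 60.3 CPM. The genotypes did not overlap, and in CPM both lines with the *hsfa2* insertion lay below their own no-HS level. It fell in *hsfa2* by 0.53 (adjusted p = 0.00018) and had a value of 0.59 in *hsfa3* (adjusted p = 3.96e-05), a difference of −1.12 (SE 0.168, adjusted p = 6.7e-05). With *MYB86*, *AT4G14170* and *AT5G04980* it made up the 4 members that were lower than no HS at 4 h in *hsfa2* (2.78%, beside 35.2% of all genes).

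**Figure D4:**
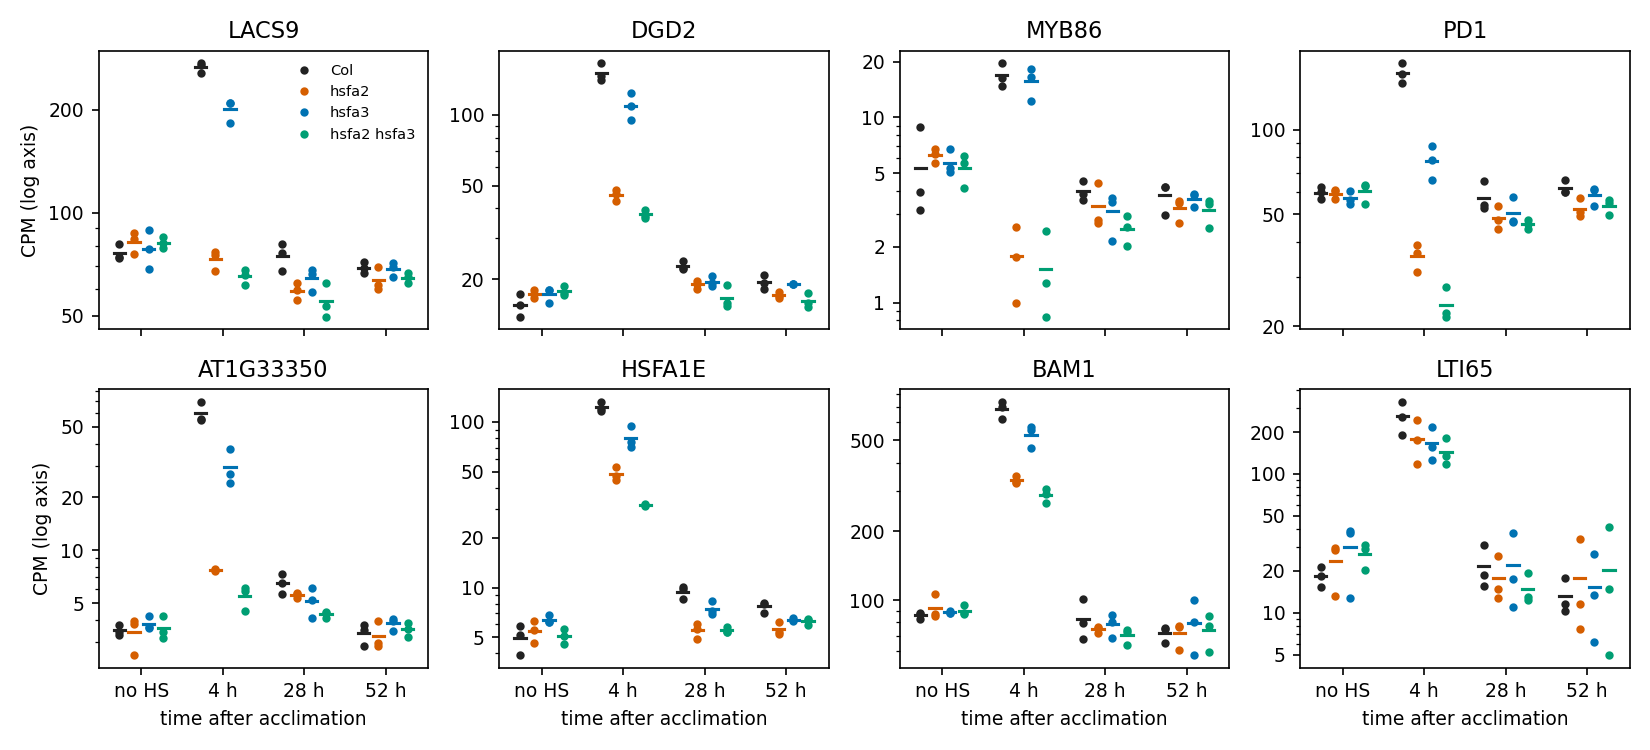
CPM (log axis) of 8 members against time after acclimation, one panel per gene; points are libraries, bars are group means of 3 libraries, and colours are genotypes. At 4 h the *hsfa2* libraries of *LACS9*, *DGD2*, *MYB86*, *PD1*, *AT1G33350*, *HSFA1E* and *BAM1* lay below all *hsfa3* libraries, while those of *LTI65* overlapped.

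Of 6 members with RNA-binding domains or pentatricopeptide repeats (PPR, found in proteins that process organelle RNA), 3 were induced in *hsfa2* and 5 in *hsfa3*, and 5 were lower in *hsfa2* than in *hsfa3*. *AT1G33350*, a PPR gene that overlaps *AT1G33355*, had the largest loss in the double mutant. It stood at 55.6, 54.5 and 69.5 CPM in Col, 27.1, 37.5 and 24.1 CPM in *hsfa3*, 7.69, 7.81 and 7.59 CPM in *hsfa2* and 6.08, 4.5 and 5.86 CPM in *hsfa2 hsfa3* at 4 h, from means of 3.43 to 3.82 CPM. The 4 genotypes were separate. Its difference between the single mutants was −1.72 (SE 0.223, adjusted p = 6.42e-06), from 1.37 in *hsfa2* and 3.09 in *hsfa3*.

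*AT4G14170*, another PPR gene, stood at 8.93, 14.6 and 13.7 CPM in Col, 8.46, 11.3 and 10.2 CPM in *hsfa3*, 1.56, 2.31 and 2.28 CPM in *hsfa2* and 1.93, 1.84 and 2.06 CPM in the double mutant. Col and *hsfa3* overlapped and were above both lines with the *hsfa2* insertion. It changed by −0.41 in *hsfa2* (SE 0.173, adjusted p = 0.0327) and by 1.91 in *hsfa3* (SE 0.168, adjusted p = 2.07e-12), a difference of −2.32 (SE 0.24, adjusted p = 6.23e-08). *ECT1*, of the YTH-domain family that reads methylated adenosine in mRNA, stood at 391, 387 and 383 CPM in Col, 255, 286 and 251 CPM in *hsfa3*, 148, 135 and 150 CPM in *hsfa2* and 98.7, 102 and 105 CPM in the double mutant. Its groups did not overlap, and its difference was −0.75 (SE 0.171, adjusted p = 0.0261).

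The chaperone group held 6 members with HSP70, DnaJ or tetratricopeptide repeat (TPR) domains, of which 4 were induced in *hsfa2*, 6 in *hsfa3* and 3 were lower in *hsfa2* than in *hsfa3*. The HSP70-family gene *AT4G16660* was among the most highly expressed members, with 916, 865 and 769 CPM in Col, 787, 851 and 685 CPM in *hsfa3*, 614, 478 and 514 CPM in *hsfa2* and 456, 476 and 444 CPM in *hsfa2 hsfa3*. Col and *hsfa3* overlapped, and its difference of −0.59 did not pass (SE 0.206, adjusted p = 0.577). *AT1G11660*, also of the HSP70 family, differed by −1.04 (SE 0.123, adjusted p = 1.12e-06), with 1.15 in *hsfa2* and 2.19 in *hsfa3*. *TPR1* differed by −0.85 (SE 0.111, adjusted p = 6.42e-06), was named here after its values were seen, and overlaps *AT4G30490*. *ERD2*, a further HSP70 gene, had no count in the no-HS libraries of *hsfa2*, *hsfa3* and the double mutant. Against the floor of 3 counts per library, taken from the library where it is highest, it was at least 20.9-fold higher at 4 h in *hsfa2*, at least 53.2-fold in *hsfa3* and at least 15.7-fold in *hsfa2 hsfa3*.

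Chromatin proteins counted 4 members, of which 2 were induced in *hsfa2*, 4 in *hsfa3* and 2 were lower in *hsfa2*. *ASF1B*, a chaperone of histones H3 and H4, stood at 30.6, 35.1 and 35.1 CPM in Col, 30.0, 38.5 and 32.6 CPM in *hsfa3*, 13.1, 14.3 and 15.9 CPM in *hsfa2* and 13.3, 13.7 and 13.9 CPM in *hsfa2 hsfa3*. Col and *hsfa3* overlapped, as did *hsfa2* and the double mutant, and the difference was −1.19 (SE 0.176, adjusted p = 5.72e-05). *MIS12*, a kinetochore gene outside this group, had a similar value of −1.20 (SE 0.173, adjusted p = 4.17e-05), from −0.06 in *hsfa2* and 1.14 in *hsfa3*.

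A group of 4 mitochondrial and plastid proteins leaves out *LACS9* and *BAM1*, which were placed in other groups. All 4 genes of this group were induced in both single mutants. In the difference edgeR called 0, with 4 at an unadjusted p below 0.05 and 1 with DESeq2. *NDB2*, an alternative NAD(P)H dehydrogenase of mitochondria, stood at 137, 133 and 132 CPM in Col, 141, 131 and 114 CPM in *hsfa3*, 87.1, 81.3 and 83.5 CPM in *hsfa2* and 86.4, 78.6 and 56.8 CPM in the double mutant. The *hsfa2* libraries were below those of *hsfa3*, with a difference of −0.61 (SE 0.212, adjusted p = 0.551). The values of *TXR1*, *TOC75-IV* and *MFDX2* were −0.43, −0.55 and −0.76.

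A group of 3 members of sugar metabolism leaves out the carbohydrate kinase gene *AT1G06030*, which is described below. *BAM1*, a beta-amylase of starch breakdown in the chloroplast, was the highest of the 3, with 703, 619 and 738 CPM in Col, 574, 462 and 555 CPM in *hsfa3*, 348, 326 and 330 CPM in *hsfa2* and 306, 267 and 293 CPM in *hsfa2 hsfa3*. The groups were separate. It rose by 2.06 in *hsfa2* and 2.74 in *hsfa3*, and its difference of −0.68 (SE 0.224) had an adjusted p of 0.432, which became 0.00743 with the replicate number as a block. *PFK7* and *G6PD6*, enzymes of glycolysis and of the pentose phosphate pathway, had differences of −0.47 and −0.43. For the 3 together, edgeR and DESeq2 called 0 in the difference, with 3 at an unadjusted p below 0.05.

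Of 4 genes of abscisic acid and dehydration, 2 were induced in each single mutant, beside 52.8% of tested members in *hsfa2* and 75.7% in *hsfa3*. In the difference edgeR called 0, with 0 at an unadjusted p below 0.05 and 0 with DESeq2. *LTI65*, known for its response to abscisic acid, stood at 331, 191 and 258 CPM in Col, 245, 117 and 176 CPM in *hsfa2*, 216, 126 and 156 CPM in *hsfa3* and 181, 119 and 134 CPM in *hsfa2 hsfa3*. Its *hsfa2* and *hsfa3* libraries overlapped, and the difference was 0.51 (SE 0.781, adjusted p = 1). The same order by replicate number held in all genotypes, and this fit had no term for that number. *CYP707A4*, which breaks down abscisic acid, rose by 2.53 in *hsfa2* and 2.41 in *hsfa3*, a difference of 0.12 (SE 0.928). *GORK*, a potassium channel, and *MAPKKK17* were not called induced in either.

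**Figure D5:**
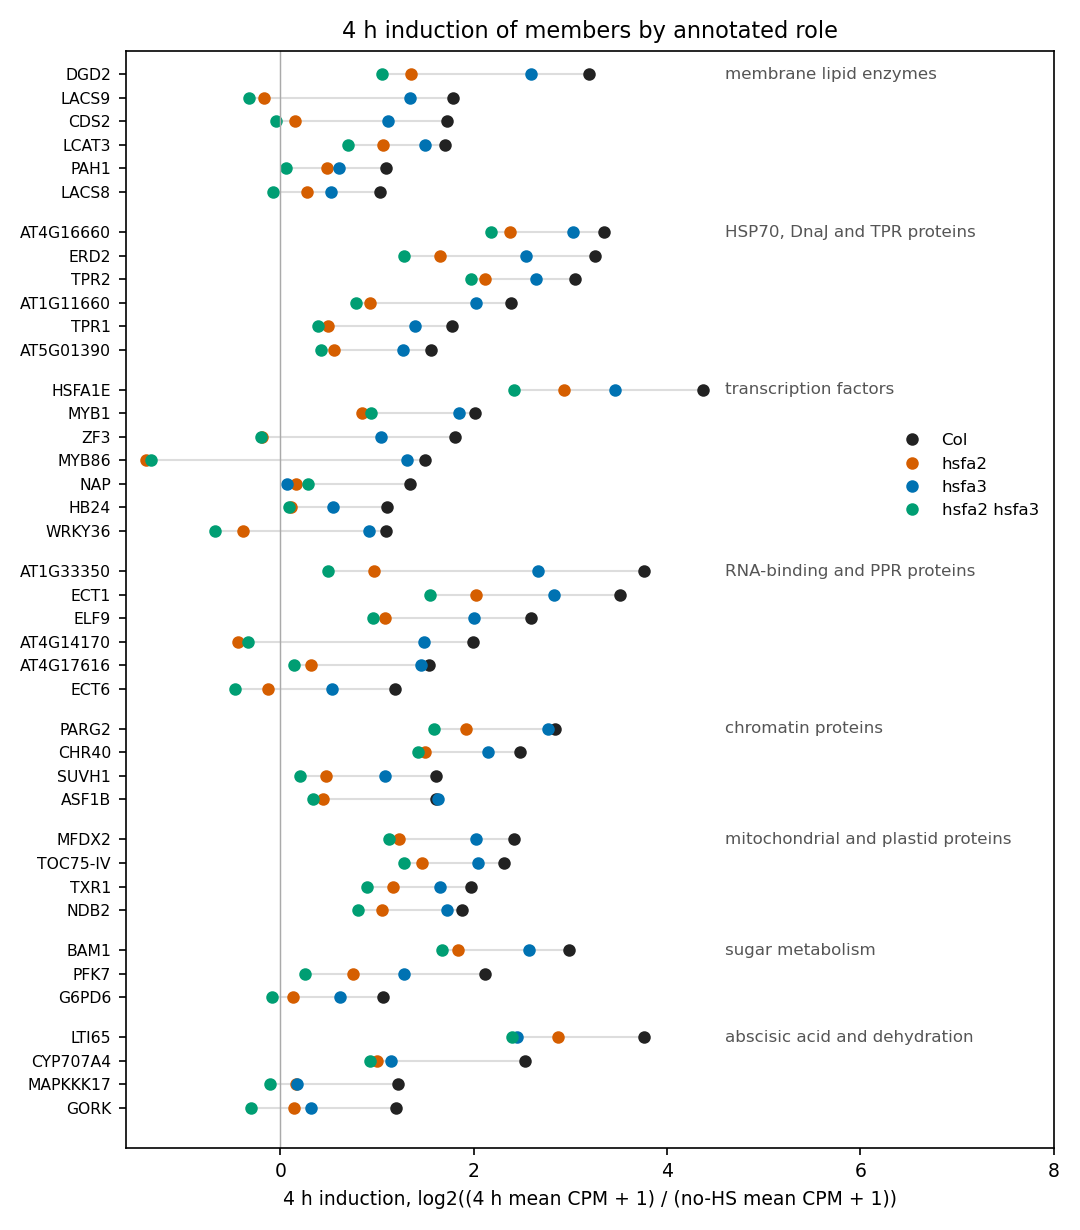
L at 4 h, log2((4 h mean CPM + 1)/(no-HS mean CPM + 1)), of the 40 members placed in 8 annotated roles (x axis; one row per gene, 4 points for the genotypes, group means of 3 libraries); L of Col and of *hsfa2 hsfa3* chose the members. In *MYB86* the points of *hsfa2* (−1.38) and *hsfa2 hsfa3* (−1.34) lie far left of *hsfa3* (1.31), and in *LTI65* *hsfa3* (2.45) lies left of *hsfa2* (2.88).

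Among members in no group, *AT5G11140*, annotated as phospholipase-like, had the largest difference. It stood at 9.10, 12.2 and 10.9 CPM in Col, 6.61, 7.64 and 5.26 CPM in *hsfa3*, 0.499, 0.468 and 0.516 CPM in *hsfa2* and 0.860, 0.385 and 0.239 CPM in *hsfa2 hsfa3*. Its difference of −4.41 (SE 0.812, adjusted p = 0.00186) was lost without replicate 3 (adjusted p = 0.18) and on the groups of the contrast alone (0.0655). *AT5G63690*, with a predicted nucleic acid-binding fold, stood at 6.10, 9.75 and 7.17 CPM in *hsfa3* and 1.15, 2.40 and 1.43 CPM in *hsfa2*. Its difference of −2.05 (SE 0.341, adjusted p = 0.000412) was lost in the same settings (0.175 and 0.0893). *5PTase12*, an inositol polyphosphate phosphatase gene that overlaps *AT2G43890*, differed by −1.69 (SE 0.186, adjusted p = 2.07e-07).

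Further members rose strongly in both single mutants. *AT1G07330* rose by 6.66 in *hsfa2* and 7.42 in *hsfa3*, *AT1G06030*, a pfkB-type carbohydrate kinase gene, by 5.75 and 5.45, and *AT1G67360*, of the rubber elongation factor family and overlapping *AT1G67350*, by 3.80 and 3.82. Their differences were −0.76 (SE 0.725), 0.29 (SE 0.567) and −0.02 (SE 0.292), each with an adjusted p of 1. At the other end, *AT1G23330* had values of −0.24 and 0.20, and *APRR8*, a pseudo-response regulator gene that overlaps *AT4G00770*, −0.06 and 0.17. *AT1G29470*, a methyltransferase gene among the 5 members with the highest Col level at 4 h, had 0.49 and 1.13. Its difference of −0.64 (SE 0.165) had an adjusted p of 0.0828, which was 0.0213 with the replicate block and 0.0278 with DESeq2.

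Of the gene lists used, 0 of 18 small heat shock proteins, 0 of 32 listed HSP70, HSP90, HSP100 and co-chaperone genes and 0 of 13 listed genes of endoplasmic reticulum stress were members. The list of 32 is not complete and leaves out the HSP70, DnaJ and TPR members described above. Of these lists, 16, 28 and 13 were induced at 4 h in *hsfa2* and 16, 25 and 13 in *hsfa3*. Early genes of Col made up 0, 11 and 9 of them, too few at a share of 8.26% to read anything from these zeros. Of 19 tested heat shock factors, 10 were induced in *hsfa2* and 11 in *hsfa3*, and *HSFA1E* and *HSFA3* were members. Of 7 listed genes that the study followed for enhanced re-induction by a repeated HS, *HSFA1E*, *LACS9* and *MYB86* were members. *TPR1*, which the study also followed, was left out of the list because 2 loci carry this symbol, and 1 of them is the *TPR1* (*AT4G30480*) described above. In the list of 7 4 genes were induced in *hsfa2*, 6 in *hsfa3* and 4 were lower in *hsfa2*, but the study followed it in these mutants, so that it is not independent evidence. No galactinol, oxidative stress, autophagy or regulator gene of the lists was a member. Early genes of Col made up only 1, 0, 2 and 0 of these lists, too few to read anything from the absence. In *hsfa2* 5 of 9, 4 of 11, 3 of 10 and 5 of 7 of their tested genes were induced, and in *hsfa3* 5, 3, 2 and 5. Over all genes tested, 15.4% were induced in *hsfa2* and 14.8% in *hsfa3*, and 0.422% were lower in *hsfa2*. None of the lists was tested against these shares.

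At later times few members were above no HS in the single mutants. In *hsfa2*, 2 members were called above no HS at 28 h (1.39%, beside 2.14% of all genes), *AT5G63300* and *ERD2*, and the latter rests on 1 library (0.509, 0.0321 and 0 CPM). In *hsfa3*, 2 were called at 28 h (2.53% of all genes), *AT2G21820* (2.17, SE 0.583, adjusted p = 0.00748) and *AT5G11140* (1.85, adjusted p = 0.0241). At 52 h edgeR called 0 members in *hsfa2* (1.79% of all genes) and 0 in *hsfa3* (1.75%), with 1 and 1 at an unadjusted p below 0.05. DESeq2 called 1 and 0, and the replicate block gave 1 in *hsfa2*. Below no HS, at an adjusted p below 0.05, were 10 members in *hsfa2* at 28 h (6.94%, beside 7.85% of all genes). At 52 h there were again 10 (6.94%, beside 4.96% of all genes and 5.58% of other early genes). In *hsfa3* there were 5 at 28 h and 4 at 52 h (beside 11.1% and 3.22% of all genes). Only the share in *hsfa2* at 52 h was above that of all genes, and this excess was not tested. *LACS9* had values of −0.45 (adjusted p = 0.000842) and −0.35 (adjusted p = 0.0115) in *hsfa2* at 28 h and 52 h, and −0.31 in *hsfa3* at 28 h (adjusted p = 0.0152). *MYB86* had −0.89 and −0.94 in *hsfa2* (adjusted p = 0.0292 and 0.0322) and −0.89 in *hsfa3* at 28 h (adjusted p = 0.0252).

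The double mutant at 28 h and 52 h took no part in the choice and was compared with each single mutant. Besides *HSFA3*, only *TPR2* was called lower. *TPR2* encodes a TPR protein and overlaps *AT1G04140*. It stood at 9.22, 7.35 and 8.53 CPM in *hsfa2*, 11.5, 10.3 and 10.7 CPM in *hsfa3* and 6.46, 5.88 and 5.20 CPM in *hsfa2 hsfa3* at 28 h, with no overlap. The double mutant was lower than *hsfa2* by a log2 value of −0.53 (SE 0.108, adjusted p = 0.0136) and than *hsfa3* by −0.87 (SE 0.107, adjusted p = 2.77e-06), and at 52 h lower than *hsfa3* by −0.50 (adjusted p = 0.0301). *HSFA3* was lower in the double mutant than in *hsfa2* by −1.27 at 28 h (SE 0.194, adjusted p = 0.000376) and −1.31 at 52 h (adjusted p = 0.000585). The counts were thus 2 against *hsfa2* and 1 against *hsfa3* at 28 h (0.18% and 0.227% of all genes) and 1 and 1 at 52 h (0.0142% and 0.0948%). With the replicate block, 3 members were lower than in *hsfa3* at 28 h. Both calls at 52 h were lost whenever a replicate was left out.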

How the data were processed

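The data are 48 RNA-seq libraries of seedlings (total RNA, DNase-treated, paired-end DNBseq reads). The authors aligned the reads to TAIR10 with STAR 2.5.1a and deposited its count per gene for each library, without normalization; the strand column is not given in the sources used here. The lines for unassigned reads (7.20% to 9.38% per library) were left out. Members and lists were chosen with earlier results of these data known, and the role groups after the members' values were seen. Of 33323 loci, 32835 matched RefSeq's TAIR10.1 gene table, which supplied names, types and overlaps, and the other 488 had no gene type.

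Counts of 26712 protein-coding genes were filtered with filterByExpr over the 16 groups (21107 kept), normalized by TMM and fitted with edgeR 4.0.16 in R 4.3.3 by quasi-likelihood, each group having its own coefficient, with 32 residual degrees of freedom. Adjusted p-values are Benjamini-Hochberg values over all genes of a contrast, and an SE is the absolute log2 fold change over the square root of the F statistic. The model was tested on simulated counts for the difference between the single mutants. It called 57 of 100 genes changed by a log2 fold of 1 in either direction and 93 of 100 changed by 2. It also called 2 unchanged genes. A difference that did not pass is therefore not shown to be absent. The motif search used RefSeq's genome; only the part before the gene start is printed.

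The replicate numbers come from the labels. Deviations from group means were correlated between same-numbered libraries for every number in both 4 h contrasts (r from 0.165 to 0.593), in the difference between the single mutants (0.143 to 0.711), between them without HS, in *hsfa2* at 52 h and in the comparisons with the double mutant, so that the numbers pair those samples. They did not for every number in *hsfa2* at 28 h or in *hsfa3* at 28 h and 52 h. The main fits, which gave the counts of the role groups, had no term for the replicate number. It entered only in the alternative with the replicate block. No pair of libraries of the same group agreed within sampling noise, and pairs from different groups were not compared.

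Genes named are *HSFA2*, *HSFA3*, members of the lists, the 8 largest losses, the 5 highest Col levels at 4 h, up to 4 largest differences in each direction, the extremes of the single-mutant fold changes, up to 3 called differences from the double mutant and between the single mutants without HS, and the genes beside the threshold. Others were named after their values were seen.

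Alternatives were DESeq2 1.42.0, its size factors in edgeR, no or a stricter filter, all genes in the files, the replicate block, the groups of the contrast alone, an adjusted p below 0.01 and each replicate left out. Leaving out single libraries was added after the data had been seen.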

Additional observations from a re-analysis of the deposited data

Results flagged for a closer look

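The following results differed between *hsfa2* and *hsfa3* by a test of the difference in 4 h induction itself, with edgeR's quasi-likelihood test and Benjamini-Hochberg adjustment. They are the 37 members with a lower and the 1 member with a higher induction in *hsfa2*. By gene, the log2 difference was 1.58 for *HSFA3*, −1.45 for *LACS9*, −3.24 for *MYB86*, −1.72 for *AT1G33350*, −4.41 for *AT5G11140*, −1.12 for *PD1*, −2.32 for *AT4G14170* and −2.05 for *AT5G63690*. *HSFA3* is the mutated gene in *hsfa3*, and its adjusted p was 0.0986 without replicate 3. The calls of *AT5G11140* and *AT5G63690* were also lost without replicate 3. Groups of 3 libraries were not examined for outlying samples.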

How the results depend on the processing

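The rule itself gave 129 to 151 members when a replicate was left out, 138 to 152 with other pseudocounts, 145 over protein-coding genes and 180 with TMM-normalized library sizes, against 148. The members induced at 4 h numbered 73 to 79 in *hsfa2* and 106 to 113 in *hsfa3* over all alternatives. The 37 members with a lower 4 h induction in *hsfa2* than in *hsfa3* became 24 on the groups of the contrast alone and 17 to 44 when a replicate or a single library was left out (17 without replicate 3, 33 to 44 without single libraries); the 1 in the other direction became 0 to 1. With the replicate block the 37 became 50. Small counts moved more. Above no HS at 28 h, the 2 members of *hsfa2* became 0 on the groups of the contrast alone and at an adjusted p below 0.01, and 0 to 1 without a replicate. The 2 of *hsfa3* became 0 and 1 in those settings, 6 with the replicate block and 1 to 5 without a replicate. At 52 h, the 0 of *hsfa2* became 1 with DESeq2 and with the replicate block, and the 0 of *hsfa3* became 1 with the block and 0 to 1 without a replicate. The 1 member that differed without HS became 0 on the contrast's groups and 0 to 1 without a replicate. Against *hsfa2* at 28 h, the 2 members lower in the double mutant became 0 on the contrast's groups, 1 at an adjusted p below 0.01 and 1 without any of the replicates. Against *hsfa3* at 28 h, the 1 became 3 with the block and 0 on the contrast's groups. At 52 h, each 1 became 0 on the contrast's groups and 0 without any of the replicates, and that against *hsfa3* became 0 at an adjusted p below 0.01. The cause was not tested; the fits on fewer groups or libraries have fewer residual degrees of freedom. Among the 4 h calls of named genes, the block changed only those of the differences of *BAM1* and *AT1G29470*. Of the 4 h inductions of named genes in the single mutants and their differences under the alternatives, 680 kept their side of the threshold. A further 4 passed it, 6 no longer did, and 0 changed direction where either fit passed it. A change of sign between values that both missed the threshold is counted among the 680. For genes under 1 CPM without HS (21 members in Col), depth limits the fold changes.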
